A study of Mus musculus with 27 samples.

Results

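The module described here holds 33 genes of hepatic fatty acid oxidation and other targets of the peroxisome proliferator-activated receptor alpha (PPARα). They were listed by symbol in 7 classes. There were 2 regulators, 15 mitochondrial, 7 peroxisomal and 2 microsomal genes, 1 ketogenic gene, 4 acyl-CoA thioesterases and 2 other targets. Of the 33 genes, 31 had a transcript cluster on the array that carried their symbol alone, and all 31 passed the filter on low values. They stood among 18820 genes on the array, of which 13993 passed. Acadvl (very long-chain acyl-CoA dehydrogenase) and Cyp4a10 (a fatty acid omega-hydroxylase) lay only on clusters shared with other gene symbols and were not analysed here.

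The livers came from 27 male C57BL/6J mice, all killed at 28 months of age. The C group (n = 8) ate the AIN-93W control diet ad libitum, and the CR group (n = 5) received AIN-93W-CR in daily portions at 30% calorie restriction. The MF group (n = 7) ate a medium-fat diet with 25% of its energy as fat ad libitum. The CR-MF group (n = 7) lived on CR up to 24 months of age and then on the MF diet for 4 months. Every mouse was fasted for 4 h, received carboxymethyl cellulose, a vehicle without drug, by gavage and was fasted for 6 h more. Mice given a synthetic PPARα agonist in the wider study were not analysed here. CR mice alone received part of their daily portion shortly before the first fast. All values below are from fasted animals, and a fed group was not part of the design. Mice were killed on several afternoons in consecutive weeks, and the hour and week of each mouse are not in the labels, so their part in the values was not tested. Mice are named by the ID in the labels.

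PPARα is a nuclear receptor that binds DNA together with the retinoid X receptor and is activated by fatty acids. In liver it is known for driving the fasting response, in which fatty acids released by adipose tissue are burned and turned into ketone bodies. Long-chain fatty acids enter mitochondria through the carnitine shuttle and are shortened there by β-oxidation. Very long and branched chains are first shortened in peroxisomes, and microsomal CYP4A enzymes hydroxylate the far end of the chain. In rodents, Acot, Cyp4a, Ehhadh, Pex11a, Vnn1 and Pdk4 are classical PPARα-inducible genes.

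Promoter windows of RefSeq (GRCm38.p6), which run from 250 bases before to 50 bases after an annotated start, were found for 27 of the 33 genes. The others were Acaa2, Decr1, Hsd17b4, Cyp4a10, Cyp4a14 and Vnn1. The windows were searched on both strands for the DR1 element, which is AGGTCA followed after any 1 base by a second AGGTCA, the kind of sequence that PPARα and its partner are known to bind. No member held it without mismatch, and 13 of 27025 genes in the table did. With at most 2 mismatches it was found in Creb3l3, Etfa and Acot4, that is 3 of 27 members, against 4.4% of all genes. These 3 windows are shown because they hold the best matches of the module, with the matched stretch in capitals. A gene with several annotated starts was represented by the window with its best match. For Acot4 the last 100 bases before that start are given (chr12:84038279-84038378, plus strand). For Etfa the bases are those on the minus strand at chr9:55512261-55512360, and for Creb3l3 those on the minus strand at chr10:81092741-81092840. The Acot4 and Creb3l3 windows lie inside the annotated genes (chr12:84037254-84044723 and chr10:81084329-81098872), so they belong to internal starts.
Acot4: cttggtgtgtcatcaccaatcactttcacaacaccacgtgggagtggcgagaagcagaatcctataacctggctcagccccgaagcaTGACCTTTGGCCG
Etfa: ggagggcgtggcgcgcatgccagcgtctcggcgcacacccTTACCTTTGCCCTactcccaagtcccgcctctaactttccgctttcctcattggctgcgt
Creb3l3: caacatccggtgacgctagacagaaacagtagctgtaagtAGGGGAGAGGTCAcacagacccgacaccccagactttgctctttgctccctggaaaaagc
A match is a description of these letters alone. In the values that follow, Acot4 was among the members that varied strongly from mouse to mouse. Etfa varied little, and Creb3l3 varied about as much as the median of all genes tested. The 4 Acot genes lie beside each other on chromosome 12, from Acot2 through Acot1 and Acot4 to Acot3, within 72540 bases (chr12:83987861-84060400).

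The first question was whether the members differed between the diets. None of the 31 members passed the test in any of the 6 comparisons between diets (limma over all 27 arrays, Benjamini-Hochberg adjustment over 13993 genes, call at an adjusted p under 0.05). In the comparison of MF with CR, 0 of 31 members were called, where 5.42% of all genes were. In CR-MF against CR it was 0 of 31 beside 0.600% of all genes, in CR-MF against MF 0 of 31 beside 1.44%, and in CR against C 0 of 31 beside 1.57%. In CR-MF against C it was 0 of 31 beside 0.300%, and in MF against C 0 of 31 beside 0 of all 13993 genes. The overall F test across the 4 diets called 0 of 31 members and 3.62% of all genes, and the smallest adjusted p of a member in it was 0.344, for Cyp4a14.

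At an unadjusted p under 0.05, limma gave 3 of 31 members between MF and CR, beside 23.7% of all genes. These were Etfa, Etfb and Acads, all lower in MF. Between CR-MF and CR it gave 4 members, beside 12.3% of all genes. Cyp4a14, Acot3 and Acadl were lower and Crot was higher in CR-MF. Between CR and C it gave 1 member, Acads, beside 19.8% of all genes, and between MF and C 1 member, Cpt1a, beside 3.97%. It gave 0 members between CR-MF and MF, beside 14.8% of all genes, 0 between CR-MF and C, beside 11.4%, and 0 in the F test, beside 20.8%. The intensity-based moderated statistic, eBayes without trend and robust eBayes also called 0 members after adjustment in each of the 6 comparisons. Missing the threshold does not show equal levels, so the intervals of the differences are given below.

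Signs leaned one way in some comparisons. The log2 difference was below 0 for 24 of 31 members between MF and CR (median -0.11, against -0.01 over all genes tested), beside 51.4% of all genes. It was below 0 for 24 of 31 between CR-MF and CR (median -0.12, against -0.00), beside 50.2%. Between CR-MF and C it was also 24 of 31 (median -0.10), beside 48.6%. Between CR-MF and MF it was 16 of 31, beside 50.5%, and between CR and C 11 of 31, beside 46.1%. Between MF and C, 29 of 31 members were below 0 (median -0.09), beside 48.7% of all genes. MF mouse C4_1 had 0 of 31 members above the gene mean, and the signs were not counted again without it. Leaving it out took the difference of MF from C from -0.58 to -0.24 for Acaa1b and from -0.16 to -0.11 for Cpt1a. Under quantile normalization the counts against CR were 20 for MF and 21 for CR-MF, and with each array centred on its median both were 28. Members move together from mouse to mouse, so these signs do not count as separate observations. Under that centring, the median of all genes shifted to -0.13 between MF and CR and to 0.11 between CR and C. Relative to the median of all genes, 23 of 31 members were lower in MF than in CR, and 19 of 31 under quantile normalization.

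**Figure D1:**
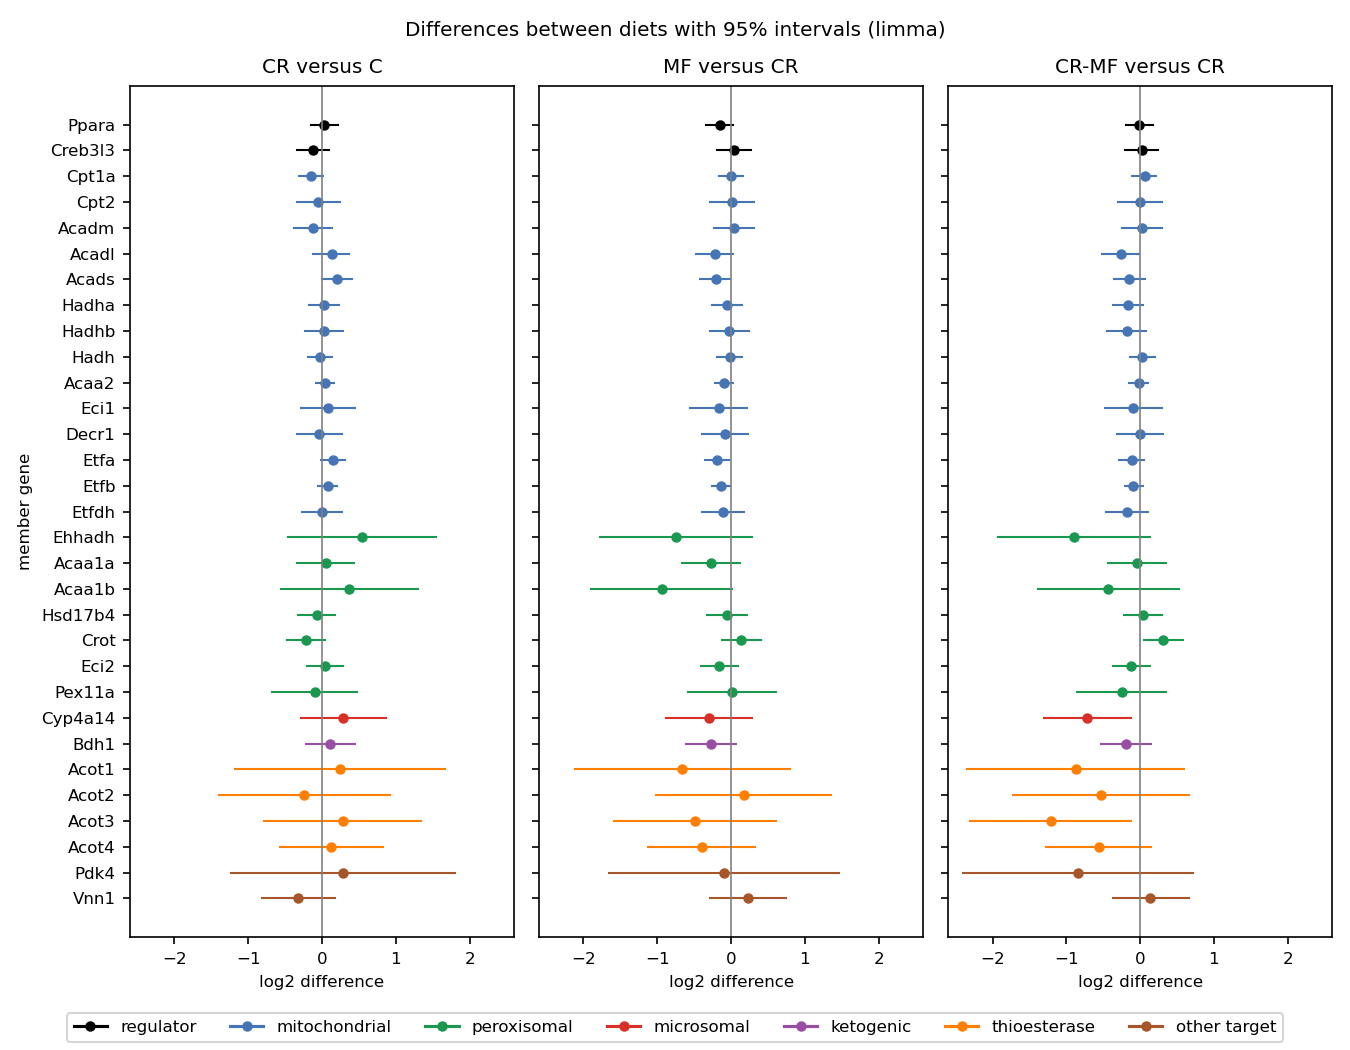
Log2 difference of each of the 31 members in CR versus C, MF versus CR and CR-MF versus CR (points) with its 95% interval from limma (lines), coloured by class. The mitochondrial members have short intervals close to 0, and the thioesterases, Pdk4, Ehhadh and Acaa1b have wide ones, as for Pdk4 in CR-MF versus CR, from -2.40 to 0.72.

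Ppara, which encodes the receptor itself, was at log2 levels of 11.06, 11.19 and 11.30 (lowest, median and highest) in C. In CR the 5 mice stood at 10.99, 11.12, 11.17, 11.32 and 11.39. In CR-MF the lowest, median and highest were 11.02, 11.16 and 11.38, and in MF 10.69, 11.11 and 11.30. The 4 groups overlapped, and MF mouse C4_1 was the lowest of all 27. The comparison with the smallest p was CR-MF against MF, at a log2 difference of 0.15 (SE 0.08, 95% interval -0.02 to 0.32, adjusted p = 0.408 by limma). It was 0.09 without C4_1. Creb3l3 encodes a liver transcription factor activated by cleavage that works with PPARα in fasting. Its CR mice stood at 9.62, 9.88, 10.05, 10.12 and 10.22. The lowest, median and highest were 9.88, 10.10 and 10.32 in C, 9.84, 10.02 and 10.20 in CR-MF and 9.63, 10.12 and 10.25 in MF, so that the groups overlapped. The difference with the smallest p was -0.12, in CR against C (adjusted p = 0.573), and it was -0.03 without CR mouse B4_1 and -0.02 with each array centred on its median. Over both regulators and all 6 comparisons, the 95% intervals reached from -0.34 to 0.32, so that differences of over 1.27-fold lay outside them.

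The mitochondrial members carry fatty acids through the carnitine shuttle and the β-oxidation spiral. The 14 measured members gave 84 intervals over the 6 comparisons, and all lay between -0.55 and 0.45 on the log2 scale, with Eci1 at both ends. Differences of over 1.46-fold were thus outside every interval of this class. Etfa, the alpha subunit of the electron transfer flavoprotein that takes electrons from the acyl-CoA dehydrogenases, had the smallest p of any member between MF and CR. Its 5 CR mice stood at 9.94, 10.05, 10.08, 10.09 and 10.19. The lowest, median and highest level was 9.67, 9.83 and 10.16 in MF, 9.74, 10 and 10.10 in CR-MF, and 9.76, 9.91 and 10.03 in C. The CR mice lay in the upper range but overlapped each other group. The difference of MF from CR was -0.19 (SE 0.08, 95% interval -0.36 to -0.03), with an adjusted p of 0.134 by limma. It was called only with each array centred on its median (-0.32, adjusted p = 0.0377) or without MF mouse C4_13 (-0.24, adjusted p = 0.0449).

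Etfb, the beta subunit of the same flavoprotein, showed a difference of -0.14 (SE 0.06, adjusted p = 0.166) between MF and CR, and passed the test under median centring alone. Cpt1a, the carnitine palmitoyltransferase that controls entry of long-chain fatty acids into mitochondria, stood at 12.16, 12.39 and 12.44 (lowest, median and highest) in C. Its 5 CR mice had 12.11, 12.12, 12.22, 12.24 and 12.27. The lowest, median and highest were 12.13, 12.24 and 12.38 in CR-MF and 11.93, 12.16 and 12.43 in MF. All groups overlapped, and no mouse of CR reached the median of C. The difference was -0.16 (SE 0.07, adjusted p = 1) for MF against C and -0.15 (SE 0.08, adjusted p = 0.282) for CR against C. Acads, the short-chain acyl-CoA dehydrogenase, was at a mean of 10.47 ± 0.13 (SD, n = 5) in CR and 10.27 ± 0.16 (n = 8) in C (difference 0.20, SE 0.10, adjusted p = 0.247, and 0.13 on plate G150 alone).

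Among the peroxisomal members, Acaa1b, a 3-ketoacyl-CoA thiolase, had the largest difference between MF and CR. Its levels in CR were 10.02, 10.76, 10.87, 11.36 and 11.45. The lowest, median and highest were 7.94, 10 and 11.30 in MF, 9.54, 10.58 and 11.25 in CR-MF, and 9.14, 10.50 and 11.65 in C. MF held both the lowest mouse of all, C4_1, and mice near the top of CR, so the groups overlapped widely. The difference was -0.94 (SE 0.46, 95% interval -1.90 to 0.01, adjusted p = 0.217), and -0.61 without MF mouse C4_1. Acaa1a, a close paralogue whose probes may share targets with Acaa1b, showed -0.27 (SE 0.19, adjusted p = 0.397).

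Ehhadh, the peroxisomal bifunctional enzyme, averaged 12.19 ± 0.79 (SD, 5 mice) in CR and 11.29 ± 0.79 (7 mice) in CR-MF, and 11.65 ± 1.07 (8 mice) and 11.44 ± 0.94 (7 mice) in C and MF. Its difference between CR-MF and CR was -0.90 with a 95% interval from -1.93 to 0.13 (adjusted p = 0.491). Crot, which makes carnitine esters of the shortened chains so that they can leave the peroxisome, ran the other way. Its CR mice stood at 11.31, 11.54, 11.56, 11.66 and 11.75, and the lowest, median and highest in CR-MF were 11.67, 11.84 and 12.20. In C these were 11.51, 11.80 and 12.17, and in MF 11.10, 11.69 and 12.02. CR-MF and CR overlapped over a short stretch only (difference 0.31, SE 0.13, 95% interval 0.05 to 0.58, adjusted p = 0.298). Hsd17b4, the second peroxisomal bifunctional enzyme, Eci2, an enoyl-CoA isomerase, and Pex11a, which takes part in peroxisome division, had differences between -0.25 and 0.04 from CR to CR-MF.

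Cyp4a14, the microsomal member measured, was at 12.76, 12.95, 13, 13.08 and 13.19 in the CR mice. In CR-MF the lowest, median and highest were 11.50, 12.20 and 12.83, in MF 11.23, 12.91 and 13.11, and in C 11.55, 12.93 and 13.21. CR and CR-MF overlapped only through CR mouse B4_1 and CR-MF mouse BC4_9. The difference was -0.72 (SE 0.29, 95% interval -1.30 to -0.13) between CR-MF and CR, with an adjusted p of 0.278, and -0.64 on plate G150 alone. Probes of Cyp4a14 may also take up transcripts of its close Cyp4a relatives. Bdh1, the ketogenic member, makes 3-hydroxybutyrate from acetoacetate. Its CR mice stood at 10.36, 10.38, 10.66, 10.74 and 10.87. In MF, the lowest, median and highest were 9.67, 10.45 and 10.79, in CR-MF 10.09, 10.40 and 10.69, and in C 10.27, 10.52 and 10.81. The groups overlapped, and the difference of MF from CR was -0.27 (SE 0.17, 95% interval -0.61 to 0.07, adjusted p = 0.327). It was -0.16 without MF mouse C4_7 and -0.51 on plate G150 alone. So the peroxisomal, microsomal and ketogenic members had no called difference either, and their intervals reached to 3.82-fold, 2.47-fold and 1.53-fold.

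The thioesterases split acyl-CoA into free acid and coenzyme A, Acot1 in the cytosol, Acot2 in mitochondria and Acot3 and Acot4 in peroxisomes. Acot3 had the largest difference of all members. In CR it stood at 8.34, 9.17, 9.17, 9.62 and 9.74. Its lowest, median and highest level was 6.41, 8.24 and 9.30 in CR-MF, 6.21, 8.87 and 9.93 in MF, and 7.76, 9.10 and 10.11 in C. Of the CR-MF mice, 4 lay below every CR mouse and 3 lay among them. The difference between CR-MF and CR was -1.21 (SE 0.53, 95% interval -2.31 to -0.12), or 2.31-fold, with an adjusted p of 0.343. Acot4 in CR was at 10.56, 10.83, 10.96, 11.13 and 11.32. Its lowest, median and highest were 9.44, 10.38 and 11.11 in CR-MF, 9.00, 10.55 and 11.47 in MF, and 10.05, 10.77 and 11.79 in C. These ranges overlapped (CR-MF against CR -0.56, SE 0.35, 95% interval -1.28 to 0.15, adjusted p = 0.546). Because the 4 genes are paralogues, probes of one may also take up transcripts of another.

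Pdk4, the kinase that shuts pyruvate dehydrogenase when fat is burned, was at 7.83, 9.29, 9.41, 9.84 and 10.45 in CR. Its lowest, median and highest level was 7.39, 8.84 and 11.58 in C, 7.08, 8.35 and 10.53 in CR-MF, and 6.90, 9.20 and 11.64 in MF. Each freely fed group spanned the whole range of CR. The difference between CR-MF and CR was -0.84 (SE 0.76, 95% interval -2.40 to 0.72, adjusted p = 0.701), and -0.19 on plate G150 alone. Vnn1, a pantetheinase of the coenzyme A cycle, stood at 10.66, 11.08, 11.29, 11.33 and 11.62 in CR. Its lowest, median and highest were 10.87, 11.56 and 12.03 in C, 10.94, 11.20 and 11.84 in CR-MF, and 10.20, 11.43 and 11.96 in MF. These ranges overlapped too (CR against C -0.32, SE 0.24, 95% interval -0.82 to 0.17, adjusted p = 0.483). The difference was -0.19 without CR mouse B4_1 and -0.63 on plate G150 alone.

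**Figure D2:**
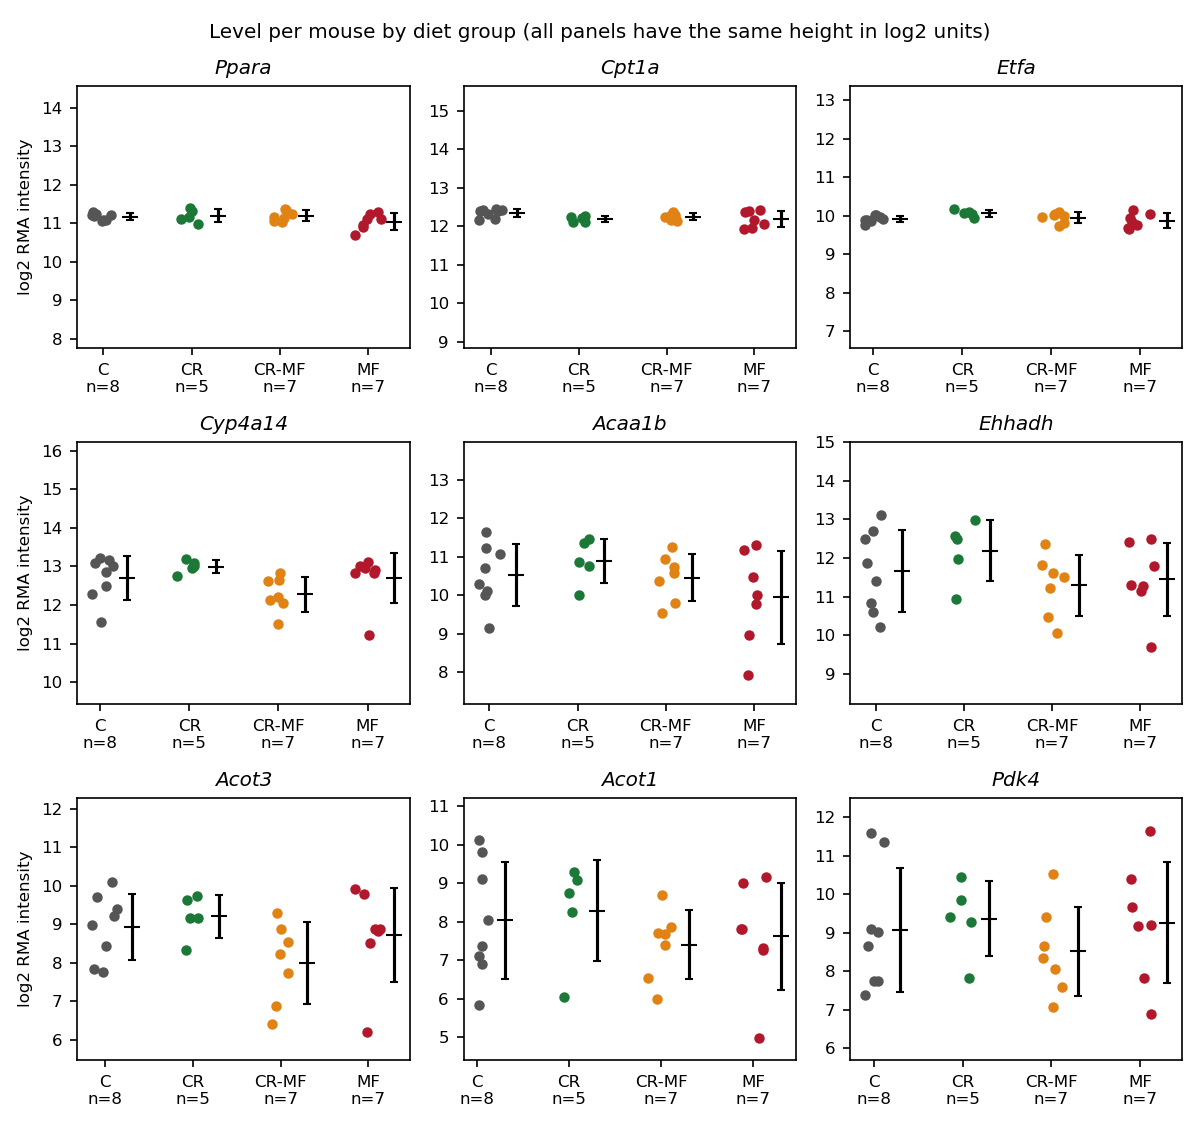
Log2 RMA intensity of 9 members in each mouse (points) by diet group, with the mean and SD of each group (black). All panels have the same height in log2 units, so that the narrow spread of Ppara, Cpt1a and Etfa can be set beside the wide spread of Acot1 and Pdk4, whose 27 mice covered 5.14 and 4.74 log2 units.

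The second question was how the members varied among mice on the same diet. Here the members ranged widely, also within a class. The SD among mice of 1 diet, pooled over the 4 groups, had a median of 0.19 log2 units over all 13993 genes and of 0.19 over the 14 mitochondrial members. It was 1.39 for Pdk4, 1.31 for Acot1, 1.06 for Acot2 and 0.98 for Acot3, 0.92 for Ehhadh and 0.85 for Acaa1b. These 6 members were above the 99th percentile of all genes tested, where Pdk4 ranked 12 and Acot1 ranked 18 from the top. Acot4 (0.64), Pex11a (0.53), Cyp4a14 (0.52) and Vnn1 (0.45) were above the 90th percentile. No mitochondrial member and neither regulator was, nor were the other 4 peroxisomal members, of which Eci2 (0.22), Hsd17b4 (0.23) and Crot (0.23) lay inside the mitochondrial range of 0.09 to 0.33 and Acaa1a (0.35) just above it. Bdh1 was at 0.30. Ppara had an SD of 0.15 and Cpt1a of 0.13, at percentiles 27.1 and 16.4, and Acaa2 (mitochondrial thiolase) and Etfb, both at 0.09, were at percentiles 1.4 and 1.5. In bulk liver, a smaller share of a cell type and less RNA per cell cannot be told apart.

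Acot1 shows the size of this spread. In C it ran from 5.83 through a median of 7.70 to 10.12, in MF from 4.98 through 7.81 to 9.16, and in CR-MF from 6.00 through 7.68 to 8.69. The 5 CR mice stood at 6.05, 8.25, 8.75, 9.08 and 9.29. From the lowest mouse, C4_1 of MF, to the highest, A4_5 of C, the level differed 35.3-fold, and within C alone it differed 19.6-fold. Its diet differences were small beside this, the widest being -0.87 (SE 0.71, adjusted p = 0.663) between CR-MF and CR. For Pdk4 the range over the 27 mice was 26.7-fold, for Acot2 17.7-fold, for Acaa1b 13.1-fold and for Ehhadh 10.7-fold, and for Ppara it was 1.63-fold. The share of the variance that lay between diets had a median of 10.4% over the members and of 15.4% over all genes. This share was not corrected for chance, which alone gives a positive share where diets do not differ. Among the strongly varying members it was 5.8% for Pdk4, 6.87% for Acot1, 11.8% for Ehhadh and 14.2% for Acaa1b, and 19% for Acot3 and 20.4% for Cyp4a14.

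**Figure D3:**
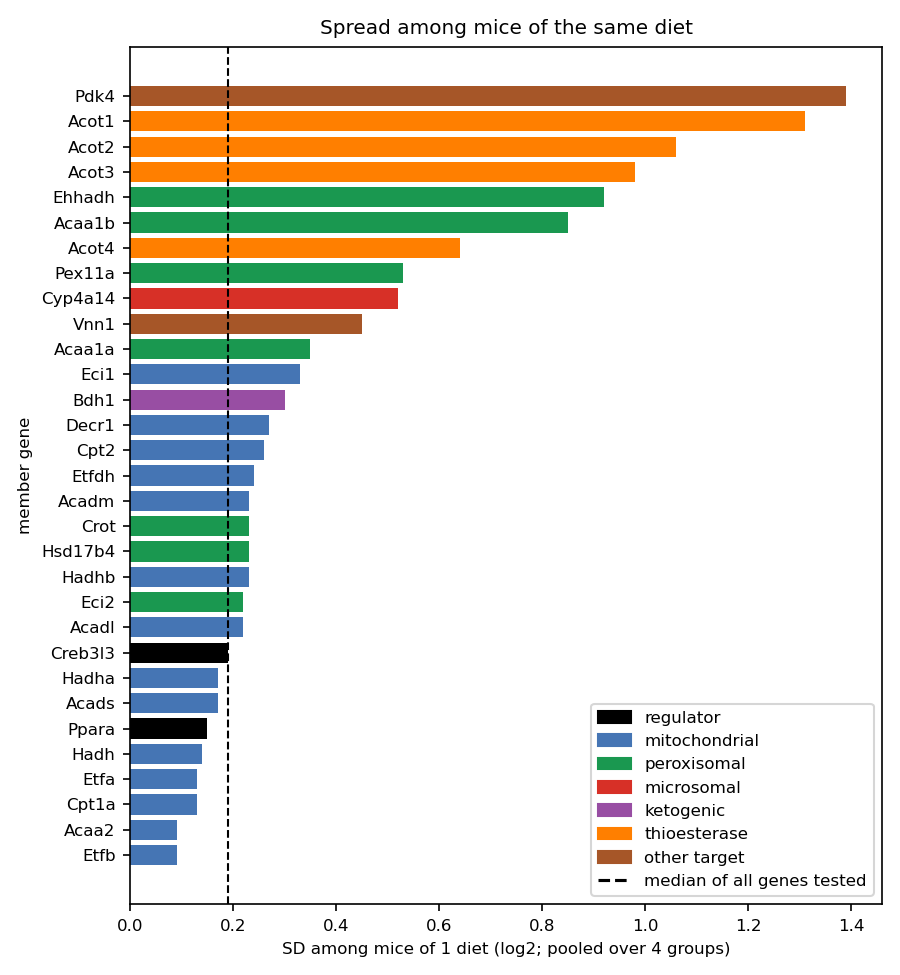
SD of the log2 level among mice of the same diet, pooled over the 4 groups, for each of the 31 members (bars, coloured by class), with the median of all genes tested as a dashed line at 0.19. Pdk4, the thioesterases, Ehhadh and Acaa1b stand at the top and Etfb and Acaa2 at the bottom.

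The mice that stood highest and lowest over the module did so in most members. Measured as the mean over the 31 members of the level minus the mean of the gene, C mouse A4_5 was the highest of 27 (0.59) and C mouse A4_3 ranked 2 (0.48). They were followed by MF mice C4_13 (0.43) and C4_15 (0.41), in each of which 31 of 31 members stood above their mean. The lowest were MF mouse C4_1 (-0.96), CR-MF mouse BC4_11 (-0.57), C mouse A4_9 (-0.49), CR-MF mouse BC4_1 (-0.42) and C mouse A4_21 (-0.34). High and low mice thus occurred within C and within MF. Other mice were mixed, such as C mouse A4_17 with 13 and CR mouse B4_7 with 16 of 31 members above the gene mean. The levels were not scaled, so members with a wide spread weigh more in the mean over the members. C4_1 was the lowest of all 27 mice in 25 of 31 members, but in 4.61% of all genes, and its median absolute deviation from its group mean over all genes, 0.115, lay inside the range over the 27 arrays (0.099 to 0.159). C mouse A4_5 was the highest of 27 in 14 of 31 members and in 3.17% of all genes. Without C4_1, 9 members in place of 10 remained above the 90th percentile of the spread and 5 in place of 6 above the 99th, and the SD of Acot1 was 1.19 and that of Cyp4a14 0.41.

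**Figure D4:**
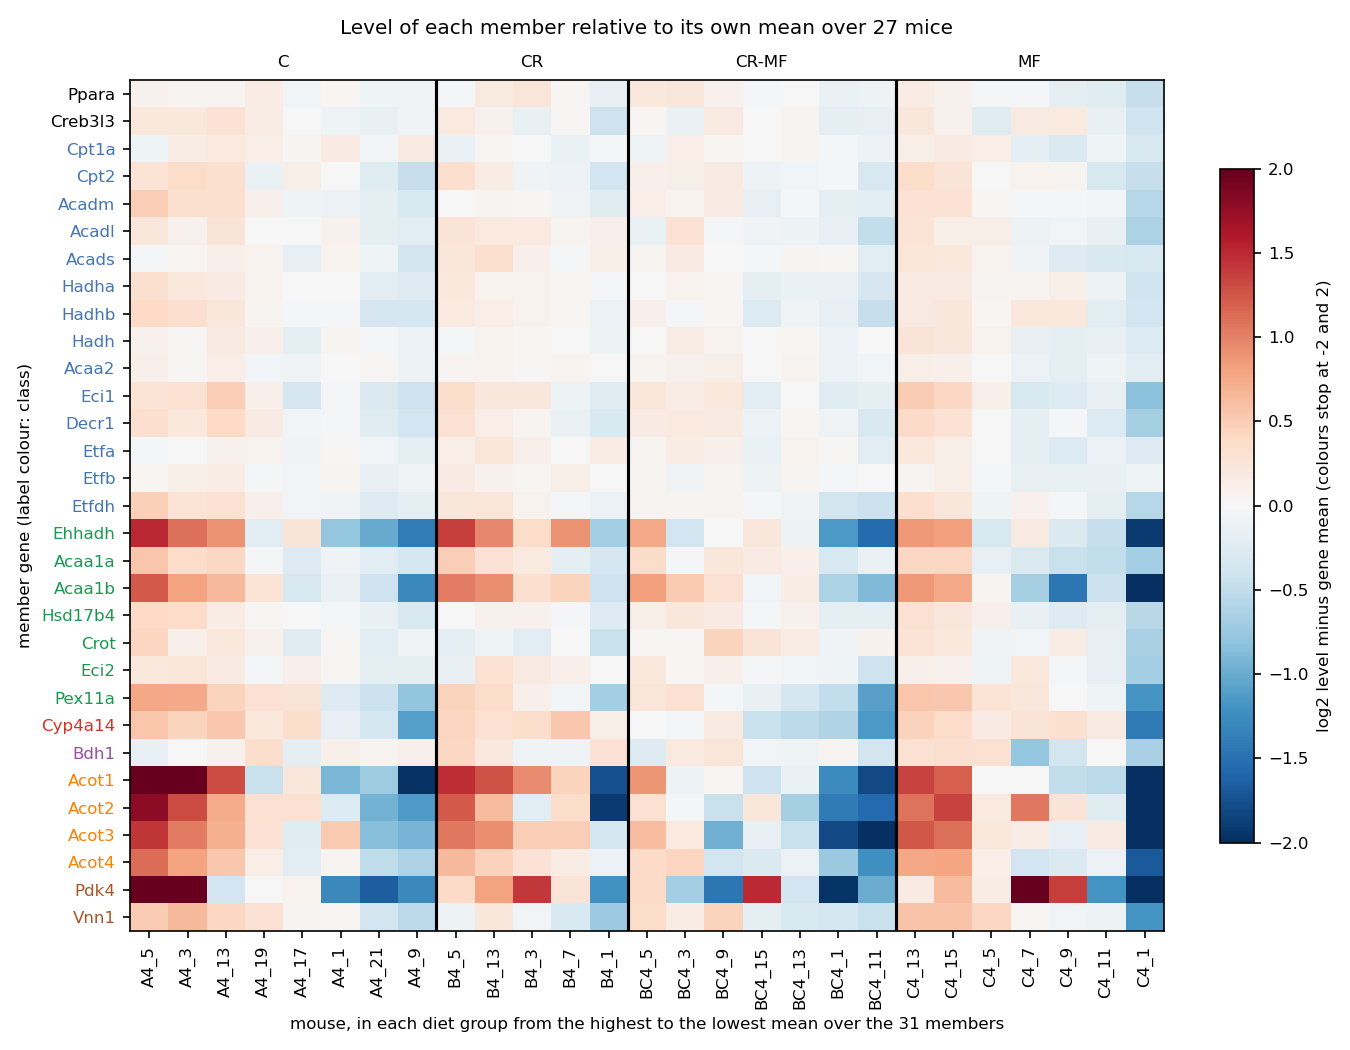
Log2 level of the 31 members (rows, label colour by class) in the 27 mice (columns, within each diet from the highest to the lowest mean over the members), relative to the mean of each gene. The columns of A4_5, A4_3, C4_13 and C4_15 are red and those of C4_1, BC4_11 and A4_9 blue across most rows, and the colours are strongest in Ehhadh, Acaa1b, the thioesterases and Pdk4.

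After the mean of its diet group was taken from each value, the members rose and fell together. Of the 465 pairs of members, 462 had a positive Pearson correlation over the 27 mice, and the median r was 0.75. An adjusted p under 0.05 was found for 412 of the 465 (permutation test within diets, 100000 resamples, two-sided, adjusted over the 465 pairs). The same counts over pairs of all genes were not computed. With Cyp4a14, 27 of the other 30 members had an r of at least 0.5, as had 3.43% of all genes, and 18 of the 30 were among the 100 genes with the highest r. With Ppara it was also 27 of 30, beside 6.93% of all genes. All points come from the same arrays, so these genes share each array's quality and cell makeup.

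For Cyp4a14 and Pex11a, r was 0.90 and Spearman's rho 0.83 (permutation p = 1e-05, the smallest these resamples can give, adjusted p = 2.66e-05). It was 0.83 without the 2 mice farthest from the median of Cyp4a14, C4_1 and BC4_11, and 0.88 among the 19 mice of plate G150. For Cyp4a14 and Acot1, r was 0.82 and rho 0.79 (permutation adjusted p = 2.66e-05), with 0.76 without those mice and 0.78 on plate G150. For Cyp4a14 and Hadha, the alpha subunit of the mitochondrial trifunctional protein, r was 0.90 and rho 0.84 (permutation adjusted p = 2.66e-05), with 0.84 and 0.88. Hadha itself had an SD among mice of 0.17, below the median of all genes. Among the steadier mitochondrial members r with Cyp4a14 was lower, at 0.64 for Acaa2, 0.54 for Etfa and 0.53 for Hadh, and without the farthest mice at 0.51, 0.36 and 0.41. Among the thioesterases alone, the 6 pairs had an r between 0.86 and 0.96, and Acot1 reached 0.96 also with Ehhadh, which lies on chromosome 16.

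Ppara itself varied little but in step with the others. Its r was 0.85 with Vnn1 (rho 0.84, permutation adjusted p = 2.66e-05, 0.78 without C4_1 and C4_11, the mice farthest from its median, and 0.88 on plate G150). With Acaa1b it was 0.81 (rho 0.74, permutation adjusted p = 2.66e-05, then 0.75 and 0.87), and with Cyp4a14 0.67 (rho 0.63, permutation adjusted p = 0.000233, then 0.52 and 0.77). Leaving out the farthest mice took the count of members with an r of at least 0.5 from 27 to 22 for Cyp4a14 and from 27 to 24 for Ppara.

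Cpt1a, Bdh1 and Etfb were the members under an r of 0.5 with Cyp4a14. Etfb had 0.38 (rho 0.45, permutation adjusted p = 0.109), and 0.46 without the 2 farthest mice. Cpt1a had an r of 0.29 with Cyp4a14 (rho 0.19, permutation adjusted p = 0.266) and -0.07 without C4_1 and BC4_11. Bdh1 had 0.30 (rho 0.17, permutation adjusted p = 0.234), and -0.05 without them. With each other, Cpt1a and Bdh1 had an r of 0.76 (rho 0.67, permutation adjusted p = 0.00127), which was 0.68 without C4_1 and C4_9 and 0.69 on plate G150. Pdk4, the member with the widest spread, followed the others less closely. Its r was 0.56 with Cyp4a14 (rho 0.50, permutation adjusted p = 0.0104), 0.45 without the 2 farthest mice and 0.55 on plate G150. It was high in MF mice C4_7 (11.64) and C4_9 (10.41) and in CR-MF mouse BC4_15 (10.53), which were not among the high mice of the module.

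**Figure D5:**
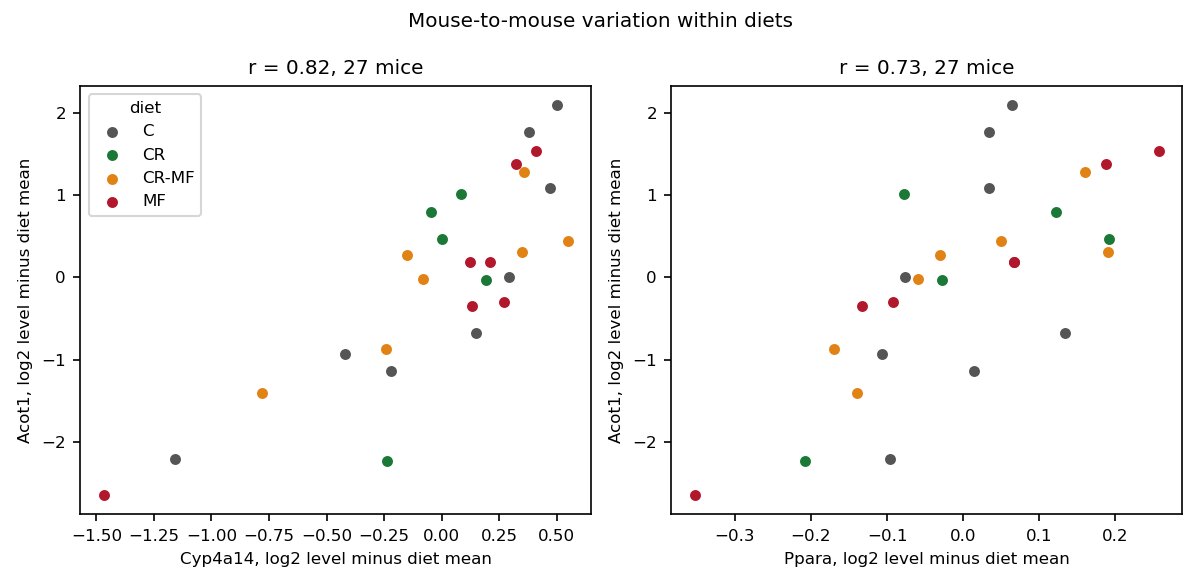
Level of Acot1 against that of Cyp4a14 (left) and of Ppara (right) in the 27 mice, both in log2 units with the mean of the diet group subtracted, coloured by diet. Pooled over the 4 diets, r was 0.82 and 0.73, with no fit within a diet, and the Ppara axis spans a much narrower range than the Cyp4a14 axis.

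Beside this pattern, the median log2 intensity of an array had an r of -0.56 with Cyp4a14 (rho -0.56, permutation p = 0.00689, adjusted p = 0.0689 over 10 measures), and its part in the pattern was not tested. The medians lay between 5.38 and 5.48. The mean of the recruited macrophage markers on the array (4 of 5 listed) had an r of -0.48 (rho -0.36, permutation p = 0.0193, adjusted p = 0.0963). For the hepatocyte markers (9 of 10 listed) r was -0.23, and their summed intensity lay between 75495 and 88432 over all mice. The other 7 marker lists of liver and blood cell types had an r between -0.30 and 0.34, with adjusted permutation p of at least 0.347. On plate G150 alone, r was -0.70 for the stellate and -0.50 for the endothelial markers, and without C4_1 and BC4_11 it was 0.18 and 0.39, so that their sign changed with the mice included. Their part in the pattern was not tested. Of the adipocyte markers on the array (4 of 5 listed), Adipoq exceeded an intensity of 20 on 0 of 27 arrays and Lep on 4. Retn exceeded it on 12 arrays and Plin1 on all 27.

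Further genes of the pathway, which were no members, were read from a list of 76, of which 63 could be tested. Some of them passed the test (limma, adjusted over all genes), and whether their share differed from that of the members was not tested. Between MF and CR 2 of 63 rose and 7 fell, beside 5.42% of all genes called. Between CR-MF and MF 2 rose and 3 fell, beside 1.44%, and between CR and C 1 rose, beside 1.57%. Between CR-MF and CR 1 fell, beside 0.600%, between CR-MF and C 1 rose and 1 fell, beside 0.300%, and between MF and C 0 passed, as for all genes.

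Ppargc1a, the coactivator PGC-1α that works with PPARα and other receptors, averaged 9.21 ± 0.46 (SD, 5 mice) in CR and 8.24 ± 0.38 (8 mice) in C, and was at 8.16 ± 0.16 and 8.17 ± 0.29 in CR-MF and MF (7 mice each). The lowest CR mouse (8.76) lay above the highest mouse of every other diet (8.72 in C). It rose in CR against C by 0.97 (SE 0.18, adjusted p = 0.0091) and fell by 1.05 from CR to CR-MF (SE 0.18, adjusted p = 0.0098). Its relative Ppargc1b was 0.65 lower in MF than in CR on the log2 scale (difference -0.65, SE 0.14, adjusted p = 0.00875), and the nuclear receptor gene Esrra showed -0.38 (SE 0.11, adjusted p = 0.0356).

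Nudt7, a peroxisomal hydrolase of coenzyme A, averaged 11.12 ± 0.14 (SD) in the 7 CR-MF mice against 10.19 ± 0.20 in the 7 MF mice, without overlap between these groups (difference 0.92, SE 0.15, adjusted p = 0.00291). It was also higher in CR-MF than in C (0.71, SE 0.15, adjusted p = 0.0296). The 5 CR mice ran from 9.80 to 11.26, a range that spanned MF and overlapped CR-MF. Fgf21, the fasting hormone and PPARα target, was lower in CR-MF (5.39 ± 0.29, n = 7) than in MF (6.12 ± 0.34, n = 7) with a difference of -0.73 (SE 0.16, adjusted p = 0.0197), and than in C with -0.70 (adjusted p = 0.0475). Acadsb, a mitochondrial dehydrogenase of branched chains, was higher in CR-MF than in MF (0.43, SE 0.10, adjusted p = 0.0195).

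Cd36, a fatty acid uptake receptor, was higher in MF than in CR (0.89, SE 0.23, adjusted p = 0.0276) and lower in CR-MF than in MF (-1.05, SE 0.21, adjusted p = 0.012). Macrophages also carry Cd36. The summed intensity of the recruited macrophage markers was 455 to 926 in MF, 309 to 385 in CR and 229 to 841 in CR-MF, and its part in the result was not tested. Apoa4, an apolipoprotein of lipid export, moved the same way as Cd36 in both comparisons (0.49 and -0.62, adjusted p = 0.0446 and 0.0174). Lpin2 (phosphatidate phosphatase, -0.61), Phyh (phytanic acid oxidation, -0.25), Nudt19 (a second coenzyme A hydrolase, -0.37) and Apoa5 (a regulator of plasma triglycerides, -0.38) were lower in MF than in CR, with adjusted p between 0.0182 and 0.0454.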

How the data were processed

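Liver RNA of each mouse was hybridised to its own Affymetrix Mouse Gene 1.1 ST array. The authors normalized the arrays by Robust Multiarray Average, and their log2 values, 1 for each transcript cluster, were used as deposited. Clusters with 1 symbol were named (21218 of 35556), and the cluster with the highest mean stood for a gene (Hadhb had 2). Genes were tested where 5 or more arrays exceeded an intensity of 20 and the interquartile range exceeded 0.1. Precision is limited by array number and by signal over background. The 4 diets were fitted in 1 linear model (R 4.3.3, limma 3.58.1, eBayes with trend, 23 residual degrees of freedom), and intervals are 95%. The fit was tested on simulated data. Correlations were computed in Python 3.11.15 (scipy 1.17.1).

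Named with the 5 CR values and the lowest, median and highest of the larger groups were Ppara and the 2 members of each class with the smallest F test p. Of the further genes, the 12 called are named with means or differences. The values of Acot1, Acot2, Ehhadh, Acaa1a, Acads, Etfb, Acadl, Hadha, Hsd17b4, Eci2, Pex11a and Acaa2 were chosen after they were seen. The members and lists were chosen with earlier results of these data known. Plate and well were read from array names, which is inferred. Every plate held all 4 diets, but all C arrays lay in well row F, all MF arrays in row G and all CR-MF arrays in row H. CR shared row F with C on plate G150 and row G with MF on the other plates. Diet and row therefore cannot be told apart between C, MF and CR-MF, nor between CR-MF and CR. On plate G150 alone this holds for MF and CR as well. Alternatives are in the closing section.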

Additional observations from a re-analysis of the deposited data

Results flagged for a closer look

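In 7 of 124 sets of values (31 members in 4 diets), 1 mouse stood farther from the others of its diet than Dixon's 95% critical value allows, and chance flags about 1 in 20, here 6.2. All 7 were the same animal, MF mouse C4_1, at the low end. Its level of Cyp4a14 was 11.23, with the next MF mouse at 12.82, and its level of Pex11a was 10.29, with the next at 11.39. It stood at 6.21 for Acot3 (next 8.52), 8.34 for Acot2 (next 10.46) and 10.20 for Vnn1 (next 11.28). For Acadm, the medium-chain acyl-CoA dehydrogenase, it stood at 11.35 (next 11.86), and for Eci2 at 9.71 (next 10.22). These members move together, so the 7 values are not separate observations.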

How the results depend on the processing

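Apart from leaving out mice, the count of called members moved in 1 case. With each array centred on its median, 2 members (Etfa and Etfb) were called between MF and CR, where 1880 genes were called in all. Leaving out each mouse in turn gave 0 to 1 called members between MF and CR (1, Etfa, without MF mouse C4_13) and 0 in the other comparisons. Quantile normalization, no filter, an intensity above 100, the mean of a gene's clusters, other variance models, array weights, fits on 2 groups, the plate as a block and plate G150 alone gave 0 in each comparison run. With the animal number as a replicate block, the count was 0 as well. Over all genes, 13 of 27 pairs of mice with the same number in different groups correlated over 0.1 (median r 0.094, against -0.023 for other pairs). The number was not used as a pairing in the main fit. Whether it marks a factor shared by these mice was not tested. The spread and the correlations among mice were not computed again with the number as a block. What the number marks is not stated. All differences between diets that were followed kept their sign. Without the 2 mice farthest from the median of Cyp4a14, its correlation turned to -0.07 with Cpt1a and to -0.05 with Bdh1. The count of members with an r of at least 0.5 was 27 of 30 for Cyp4a14 and for Ppara, 25 and 28 on plate G150, and 22 and 24 without MF mouse C4_1, a setting chosen after seeing the data.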

Other observations

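Of the 63 further pathway genes, 25 had an r of at least 0.5 with Cyp4a14 among mice of the same diet, beside 3.43% of all genes. The median r was 0.35 over the 63 and -0.02 over all genes. The 25 include Cyp4a31, Cyp4a12a and Cyp4a12b, Cyp4a relatives whose transcripts the probes of Cyp4a14 may also take up. Highest were Retsat (a retinol saturase), Cyp4a31 (a close relative of Cyp4a14), Crat (carnitine acetyltransferase), Aldh3a2 (fatty aldehyde dehydrogenase) and Slc25a20 (the carnitine carrier). By the mean over the 31 members, mice whose ID ended in 1 as animal number ranked 19 (C), 22 (CR), 24 (CR-MF) and 27 (MF) of 27 from the top. Those with the number 5 ranked 1 (C), 5 (CR), 8 (CR-MF) and 13 (MF), and those with the number 13 ranked 6 (C), 7 (CR), 18 (CR-MF) and 3 (MF). For the number 3 the ranks were 2 (C), 9 (CR) and 12 (CR-MF), and for the number 9 they were 25 (C), 15 (CR-MF) and 20 (MF). What the number marks is not stated in the labels.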
